A study of Mus musculus with 6 samples.

Results

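Circular RNAs (circRNAs) of the mouse hippocampus that were detected mainly in one genotype are described here, in a study of mice with and without Nrf2. A circRNA belonged to this group if its spot was flagged as well above background on all 3 arrays of one genotype and on at most 1 array of the other. Of 14161 circRNA probes whose spots were free of the outlier flag on all 6 arrays, 52 were detected mainly in wild type (0.367%) and 25 mainly in knockout (0.177%). Among the other probes, 12517 were detected on all 6 arrays and 418 on none. All mice were males of the ICR strain, aged 3 to 4 months. The 3 controls were labelled wild type, Nrf2 (+/+), and the other 3 mice carried an Nrf2 gene knockout, Nrf2 (-/-), with no Cre line, clone or pooling named in the labels. Total RNA of each mouse's hippocampus was digested with RNase R, labelled with Cy3 and hybridised to 1 single-colour array. The circRNAs were chosen by the detection flags of these same 6 arrays, so the levels and genotype differences below are descriptions and carry no test of their own.

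A circRNA is made when a downstream splice donor is joined back to an upstream splice acceptor, which leaves a closed loop without free ends. Such loops resist exonucleases like RNase R, which digests linear RNA, and they are known to be plentiful in brain, where many come from genes of synapses and neuronal projections. Nrf2, encoded by Nfe2l2, is a transcription factor that is held back by Keap1 in resting cells and switches on antioxidant and detoxification genes under oxidative stress. The study's design text states its purpose as a comparison of hippocampal profiles with and without Nrf2. The files used here identify each circRNA by its array probe alone, so the host gene, genome position and sequence of a probe are not given, and probe names stand for circRNAs throughout. No probe for Nfe2l2 was identified on the array, so nothing here checks the labelled genotype of a mouse by its target gene.

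Detection was set by a separate signal level on each array. The flag switched at a background-subtracted intensity of 9.71, 9.35 and 7.43 units on wild types 1 to 3, and of 13.9, 6.68 and 5.93 units on knockouts 1 to 3. Relative to the 75th percentile of the circRNA signal, which was 229 to 481 intensity units, that level was 2.43%, 2.51% and 3.24% in wild type and 3.65%, 1.39% and 1.80% in knockout. Knockout 1 thus needed the brightest spot for a detection and knockouts 2 and 3 the dimmest. Detected were 12711 to 13516 of the 14161 probes, fewest on knockout 1 and most on knockout 2. The file headers placed the 3 wild-type arrays and knockout 1 in scan 1, and knockouts 2 and 3 in scan 2. Of 17 marker genes listed for brain cell types only 3 had an mRNA probe. Apoe, made mainly by astrocytes, Mbp of myelin and Chgb of neuronal secretory granules were detected with every spot on every array.

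Signals are given below as relative log2 signal, which is the log2 of the software's processed intensity after subtracting the 75th percentile of that array's circRNA probes. The circRNAs detected mainly in one genotype were dim. In wild type, the median of the 52 was a relative log2 signal of -4.49, and 11.2% of all probes lay below it. In knockout, the median of the 25 was -4.78, with 10.2% of all probes below. None of either group was brighter in its own genotype than the median circRNA probe of the array. The processed intensity carried a median error, by the software's own estimate, of 15.9% and 15.6% on the arrays of the genotype that had them, against 10.1% over all probes and arrays. In bulk tissue, fewer cells with a circRNA and fewer copies per cell cannot be told apart.

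The 52 circRNAs detected mainly in wild type had a median difference of -1.53 on the log2 scale (knockout minus wild type) in the processed signal. By the rule at least 2 of the 3 knockout spots of each were not well above background, so such a difference is not a measured fold. With every undetected spot raised to its array's lowest detected signal, the lower bounds had a median of 2.06-fold and ran from 1.24-fold to 14.7-fold. The bound was at least 2-fold for 26 circRNAs and at least 4-fold for 8. In the processed signal as given, 38 differed by 2-fold or more, where 6.84% of all probes were lower by as much. A difference of 4-fold or more was seen for 15, and no share of all probes is given for it. On 35 of the 52 all 3 knockout arrays lay below all 3 wild-type arrays, where 17.4% of all probes did. The arrays of the 2 genotypes overlapped for the other 17. These shares follow in part from the rule, which used the same arrays. The median SD between mice was 0.42 in wild type and 0.79 in knockout. Of the 52, 11 were detected in no knockout mouse, 25 also in knockout 2, 11 also in knockout 1 and 5 also in knockout 3.

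**Figure D1:**
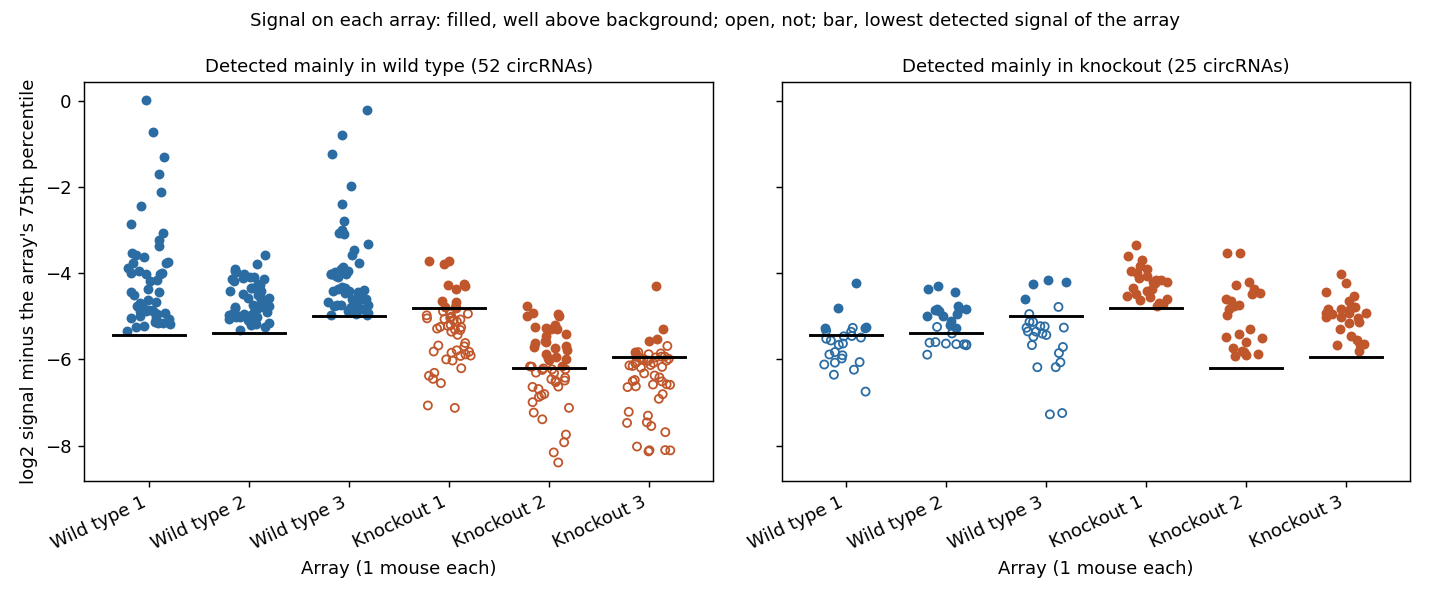
Relative log2 signal (vertical axis) of each circRNA on each of the 6 arrays (horizontal axis), for the 52 circRNAs detected mainly in wild type (left) and the 25 detected mainly in knockout (right). Filled points were well above background, open points were not, and the black bar is the lowest detected signal of that array, at -4.82 on knockout 1 and -6.21 on knockout 2. The left panel has a tail of bright circRNAs on wild types 1 and 3 that is missing on wild type 2.

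Of the 11 circRNAs detected in every wild-type and no knockout mouse, 9 carried the software's weaker flag, a signal positive and significant against background, on all 6 arrays. Their differences too are given as lower bounds, and the largest of the 11 was that of ASCRP4010405. Its relative log2 signal was -3.23, -3.90 and -2.99 on wild types 1 to 3 and -4.94, -7.74 and -8.10 on knockouts 1 to 3. In the processed signal wild type was at least 4.87-fold brighter, and the knockout closest to it was knockout 1. In intensity units these spots read 42.6, 24.9 and 28.8 in wild type and 12.4, 2.24 and 1.20 in knockout.

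ASCRP4009984 was at -4.51, -3.96 and -3.09 in wild type and at -5.07, -6.17 and -6.62 in knockout, at least 3.47-fold brighter in wild type. ASCRP4011664 read -3.54, -4.28 and -4.32 against -4.94, -6.80 and -6.03, with a bound of at least 3.06-fold. For both circRNAs the genotypes did not overlap and knockout 1 was again the brightest of the knockouts. ASCRP4012105 (-3.62, -4.79 and -3.95 against -5.05, -6.69 and -6.17) was at least 2.90-fold brighter in wild type. ASCRP4006412 stood at -4.01, -4.94 and -3.85 in wild type and at -6.03, -7.12 and -7.30 in knockout, at least 2.63-fold brighter. ASCRP4006287 followed with -4.00, -5.20 and -3.95 against -6.38, -6.42 and -6.58, at least 2.42-fold.

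The remaining 5 of the 11 had bounds between 1.69-fold and 2.24-fold. ASCRP4009782 was tight in both genotypes, at -4.62, -4.89 and -4.98 in wild type and -6.31, -6.99 and -6.81 in knockout (means -4.83 ± 0.19 and -6.70 ± 0.35, SD, n = 3 each). ASCRP4002938 was equally even in wild type, at -4.77, -5.01 and -4.83, and stood at -6.45, -8.39 and -8.02 in knockout. On wild type 3 these 2 circRNAs were only 1.03 and 1.09 times the detection level. ASCRP4002766 and ASCRP4005616 likewise did not overlap between genotypes, with wild-type means of -4.90 ± 0.21 and -4.82 ± 0.18 (SD, n = 3). The exception was ASCRP4005447, at -4.01, -5.24 and -4.08 in wild type and -4.92, -6.16 and -5.83 in knockout, where undetected knockout 1 was brighter than wild type 2. On all 11 circRNAs knockout 1 was the brightest knockout array, as it was for 34.0% of all probes and for 68.9% of the 418 probes detected on no array.

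**Figure D2:**
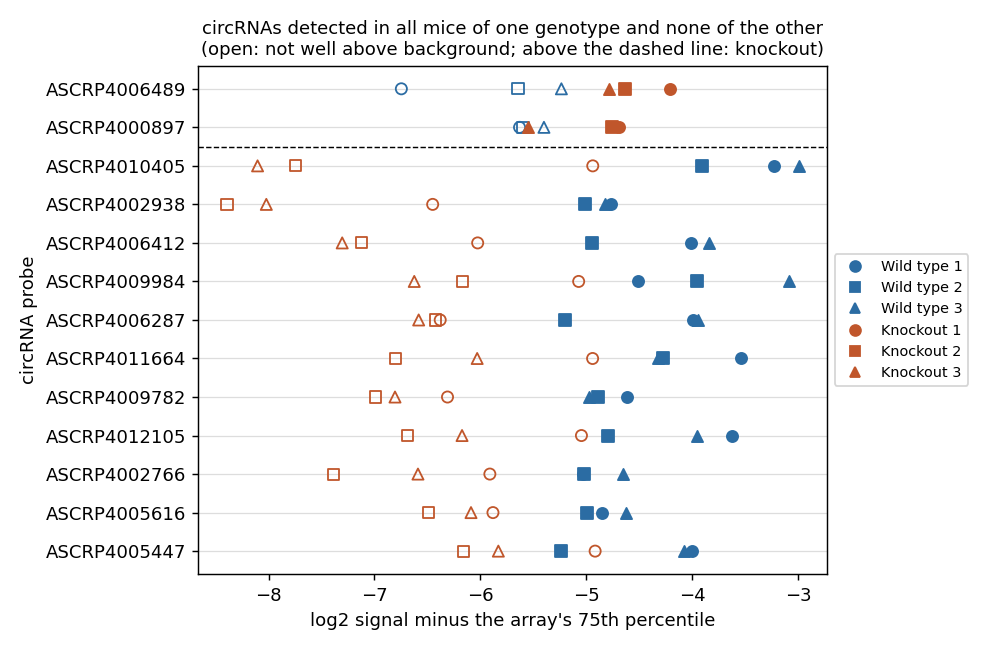
Relative log2 signal (horizontal axis) of the 11 circRNAs detected in all wild-type and no knockout mice (below the dashed line) and of the 2 detected in all knockout and no wild-type mice (above it). Symbols mark the 6 mice, and open symbols were not well above background. Knockout 1 (open circle) lies nearest to wild type in each of the 11 lower rows, and in the row of ASCRP4005447 it lies above wild type 2.

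The circRNAs with the highest bounds were bright in only some of the wild-type mice. ASCRP4000663 had a relative log2 signal of -0.73, -3.98 and -0.22 in wild type and of -4.26, -7.23 and -8.13 in knockout. The wild-type mean was -1.64 ± 2.04 (SD, n = 3), and with knockouts 2 and 3, both undetected, raised to their detection level wild type was at least 14.2-fold brighter. Wild type 2 stood only slightly above knockout 1, where the circRNA was detected. ASCRP4012161 was at 0.01, -4.35 and -0.79 in wild type and at -6.20, -6.01 and -7.47 in knockout, with a bound of at least 14.7-fold and a detection on knockout 2 alone. Its spots read 403, 18.3 and 132 intensity units in wild type and 5.18, 7.46 and 1.86 in knockout. ASCRP4012996 repeated the pattern, with -1.30, -4.57 and -1.23 against -5.70, -5.25 and -7.22 and a bound of at least 7.84-fold. Wild types 1 and 3 were bright for these 3 circRNAs, the brightest of the 52, while wild type 2 stood far below both and above all knockouts.

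The same wild-type mouse was low in several circRNAs. Wild type 2 lay at least 2-fold below both other wild-type mice for 10 of the 52 (19.2%), against 256 of all 14161 probes (1.81%) and 5 of the 327 probes that were detected on 3 or 4 arrays outside the rule (1.53%). Of the 15 circRNAs that differed by 4-fold or more in the processed signal, 8 had this gap. ASCRP4001045 stood at -1.71, -4.13 and -1.97 in wild type and -5.28, -5.97 and -6.08 in knockout. ASCRP4002603 read -2.44, -4.10 and -2.40 against -5.25, -5.69 and -6.15. ASCRP4007144 was at -2.86, -4.71 and -2.79 against -4.65, -6.31 and -6.42, so that knockout 1 exceeded wild type 2 and was itself detected. Over the 52 circRNAs wild type 2 was the lowest wild-type mouse for 32 and wild type 3 the highest for 29, and over all probes wild type 2 was lowest for 25.6%. This gap was noticed in the data and was not tested.

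**Figure D3:**
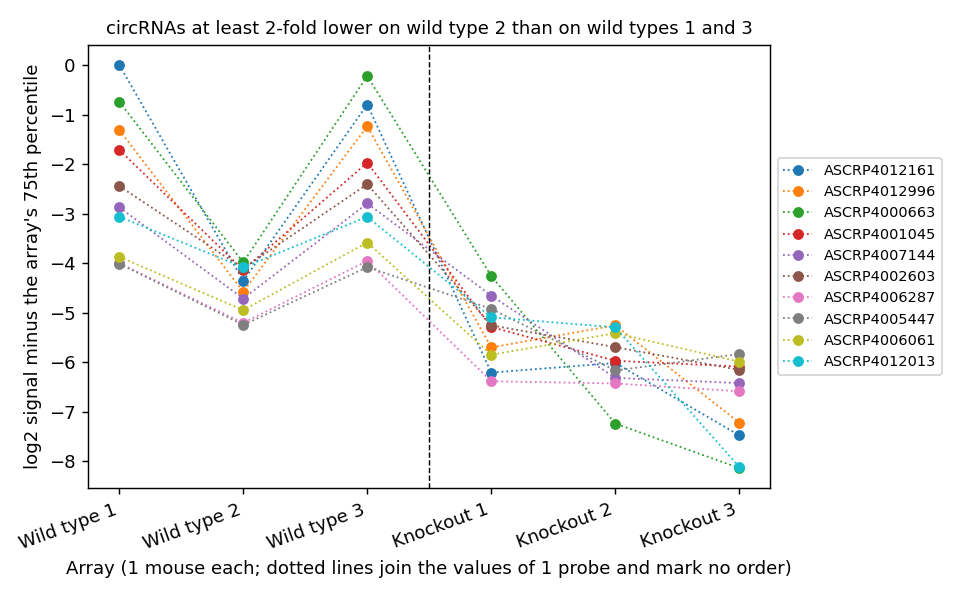
Relative log2 signal (vertical axis) on the 6 arrays (horizontal axis) of the 10 circRNAs that were at least 2-fold lower on wild type 2 than on both other wild-type arrays. Dotted lines join the values of a probe. Wild types 1 and 3 are close to each other, and wild type 2 lies between them and the knockouts for most probes, except that knockout 1 lies above wild type 2 for ASCRP4007144 and ASCRP4005447.

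A further set was undetected only in the knockouts of scan 2. ASCRP4005284 was at -2.12, -3.57 and -3.45 in wild type, at -4.30 on knockout 1, where it was detected, and at -8.16 and -8.11 on knockouts 2 and 3. Among the 11 circRNAs detected also in knockout 1 alone, ASCRP4013948 stood at -3.76, -4.03 and -4.59 in wild type, -3.79 on knockout 1 and -7.92 and -7.46 on knockouts 2 and 3. For ASCRP4003362 and ASCRP4000080 knockout 1, at -3.71 on both, was brighter than all 3 wild-type mice. Over the 52, knockout 1 lay above all wild-type mice for 5 circRNAs and below all of them for 39. Knockouts 2 and 3 both lay below all wild-type mice for 47. These orders follow in part from the rule, and no share of all probes is given for them.

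A detection on knockout 2 did not mean the brightest knockout signal. Of the 25 circRNAs detected also in knockout 2 alone, undetected knockout 1 was brighter than knockout 2 for 13. ASCRP4012013 was one of these 13, at -3.06, -4.08 and -3.06 in wild type and -5.09, -5.29 and -8.11 in knockout, with knockout 1 just above knockout 2. In all, 17 of the 52 had an undetected array that was brighter, in relative log2 signal, than a detected one. The detection level, which was 13.9 units on knockout 1 and 6.68 on knockout 2, moved with these flags, and its part in the count was not tested.

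The dimmest of the 52 sat at the edge of detection. ASCRP4006437 was at -5.16, -5.31 and -4.97 in wild type and -5.82, -6.23 and -5.58 in knockout, a difference of -0.73 with its weakest wild-type spot at 1.01 times the detection level. ASCRP4011635 (-5.15, -5.09 and -4.92 against -4.82, -6.24 and -6.13) was brightest of all in knockout 1. ASCRP4008246 had a difference of -0.61, with wild-type values of -5.25, -5.02 and -4.75 and knockout values of -5.36, -5.56 and -5.93. Only 7 of the 52 had all 3 wild-type spots at 2 times the detection level or more, and 16 had them at 1.5 times or more. By the weaker flag, 45 of the 52 were present on all 6 arrays. The other 7 lacked that flag on 1 or 2 arrays. Their lowest values, such as -8.13 for ASCRP4000663 and -8.10 for ASCRP4010405, have no order among themselves.

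Just outside the rule on this side lay 309 probes detected in all wild-type mice and in 2 of 3 knockouts, with a median difference of -0.41. ASCRP4002377 was the one with the largest difference, at 0.64, -3.24 and 0.51 in wild type and -4.29, -5.48 and -6.76 in knockout. It too was low in wild type 2. A further 34 probes were detected in 2 wild-type mice and no knockout (median difference -1.54). Among them, ASCRP4001458 stood at -4.07, -4.17 and -5.13 in wild type and -4.97, -8.48 and -8.16 in knockout.

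The 25 circRNAs detected mainly in knockout had smaller differences. Their median difference was 0.60 on the log2 scale in the processed signal, and the median SD between mice was 0.60 in wild type and 0.62 in knockout. At least 2 of the 3 wild-type spots of each were not well above background. With undetected spots raised to their array's lowest detected signal, the median difference was 0.32, and the median of the lower bounds was 1.25-fold. The highest bound was 2.06-fold, the only one of 2-fold or more, and 3 of the 25 were then lower in knockout. In the processed signal as given, 5 differed by 2-fold or more, where 1.31% of all probes were higher by as much. All 3 knockout arrays lay above all 3 wild-type arrays for 7 of the 25, where 15.3% of all probes did, and the genotypes overlapped for 18. Of the 25, 2 were detected in no wild-type mouse, 15 also in wild type 2, and 4 each also in wild types 1 and 3. After another background correction (normexp) the sign of this group turned, with a median difference of -0.10 and 3 of 25 higher in knockout. The median of all 13336 fitted probes moved as well, from 0.04 to -0.07.

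Both circRNAs detected in every knockout and no wild-type mouse were dim. ASCRP4006489 was at -6.75, -5.65 and -5.24 in wild type and -4.21, -4.63 and -4.78 in knockout, without overlap and at least 1.66-fold brighter in knockout. ASCRP4000897 stood at -5.63, -5.60 and -5.40 against -4.69, -4.76 and -5.55, with a bound of at least 1.21-fold. Knockout 3 lay within the wild-type range here, and its detection level was lower than those of the wild-type arrays.

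Among the circRNAs seen also in 1 wild-type mouse, ASCRP4001114 had the highest bound, at least 2.06-fold brighter in knockout. It stood at -5.25, -5.65 and -7.27 in wild type and at -4.07, -4.20 and -4.22 in knockout, with a knockout mean of -4.16 ± 0.08 (SD, n = 3). The knockout mice were close to each other, and wild types 2 and 3 were undetected, wild type 3 at 1.48 intensity units. ASCRP4014188 (-4.81, -5.67 and -7.24 against -4.72, -4.28 and -5.13) was likewise lowest in wild type 3, and detected wild type 1 exceeded knockout 3. ASCRP4005709 was at -6.06, -4.87 and -5.47 in wild type and -3.99, -4.60 and -4.45 in knockout, at least 1.69-fold brighter. ASCRP4005549 read -5.46, -4.83 and -5.13 against -4.76, -3.52 and -4.01. Both were without overlap, though for ASCRP4005549 the gap between wild type 2 and knockout 1 was narrow.

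ASCRP4006797 was the brightest of the 25 in knockout, at -3.84, -3.52 and -4.53, with -5.36, -4.37 and -4.95 in wild type, so that wild type 2 exceeded knockout 3. ASCRP4003820 stood at -6.24, -5.27 and -5.71 in wild type and -4.36, -4.96 and -5.02 in knockout, at least 1.38-fold brighter and without overlap. The dimmest 3 in knockout, ASCRP4006727, ASCRP4002690 and ASCRP4010718, had differences of 0.28, 0.30 and 0.26. For ASCRP4010718 knockout 1 was at -3.94 and knockouts 2 and 3 at -5.73 and -5.67, within the wild-type values of -5.90, -5.63 and -4.60. None of the 25 had all knockout spots at 2 times the detection level, and 24 of 25 carried the weaker flag on all 6 arrays.

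Outside the rule on the knockout side, 106 probes were detected in all knockouts and 2 wild-type mice (median difference 0.52). ASCRP4013766 led them, with -3.42, -4.46 and -5.27 in wild type and -2.48, -1.89 and -2.48 in knockout, a difference of 2.10 in the processed signal that is larger than any within the 25. Another 98 were detected in 2 knockouts and no wild-type mouse (median difference 0.40). ASCRP4011841, the one with the largest difference, stood at -7.62, -7.28 and -7.20 against -5.99, -5.63 and -5.14.

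The spots of the circRNAs detected mainly in knockout lay toward the sides of the array, a property that the rule did not use. The array has 192 rows and 82 columns, and the outer 10 columns on either side held 17 of the 25 (68%), against 24.2% of all 14161 probes. They held 26.0% of the 327 probes detected on 3 or 4 arrays outside the rule, and 9 of the 52 circRNAs detected mainly in wild type (17.3%). None of the 11 circRNAs detected in no knockout mouse lay there. The outer 5 columns held 12 of the 25 (48%) and 12.0% of all probes. The width of 10 columns was chosen after the positions were seen.

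Among the probes not detected on all 6 arrays, which include these circRNAs, outer columns were brightest relative to inner ones on the knockout arrays. Of these probes, knockout 1 detected 18.6% of the 413 in the outer columns and 9.50% of the 1231 inner ones. Their median relative log2 signal on knockout 1 was -5.45 in the outer and -5.88 in the inner columns. It was -5.60 and -5.78 on knockout 2 and -5.45 and -5.74 on knockout 3, while on wild types 1 to 3 it was -5.49 and -5.50, -5.27 and -5.31, and -5.32 and -5.43. On the array's negative probes, without the 2 detected by every spot, outer and inner medians were -7.00 and -7.07 on knockout 1. They were -8.40 and -8.46 on knockout 2, and -7.98 and -8.10 on knockout 3. On wild types 1 to 3 they were -7.58 and -7.66, -7.54 and -7.59, and -7.13 and -7.22. For the negative probes the gap on knockout 1 was close to those on the wild types. Their median background-subtracted signal on knockout 1 was negative, at -2.52 units in the outer and -2.51 in the inner columns. Spots without signal above background cannot show how position acts on dim circRNA spots, so nothing is read from this gap. The part of spot position in the knockout group was not tested. The 8 of the 25 outside these columns had a median difference of 0.85, and 3 of them were without overlap.

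**Figure D4:**
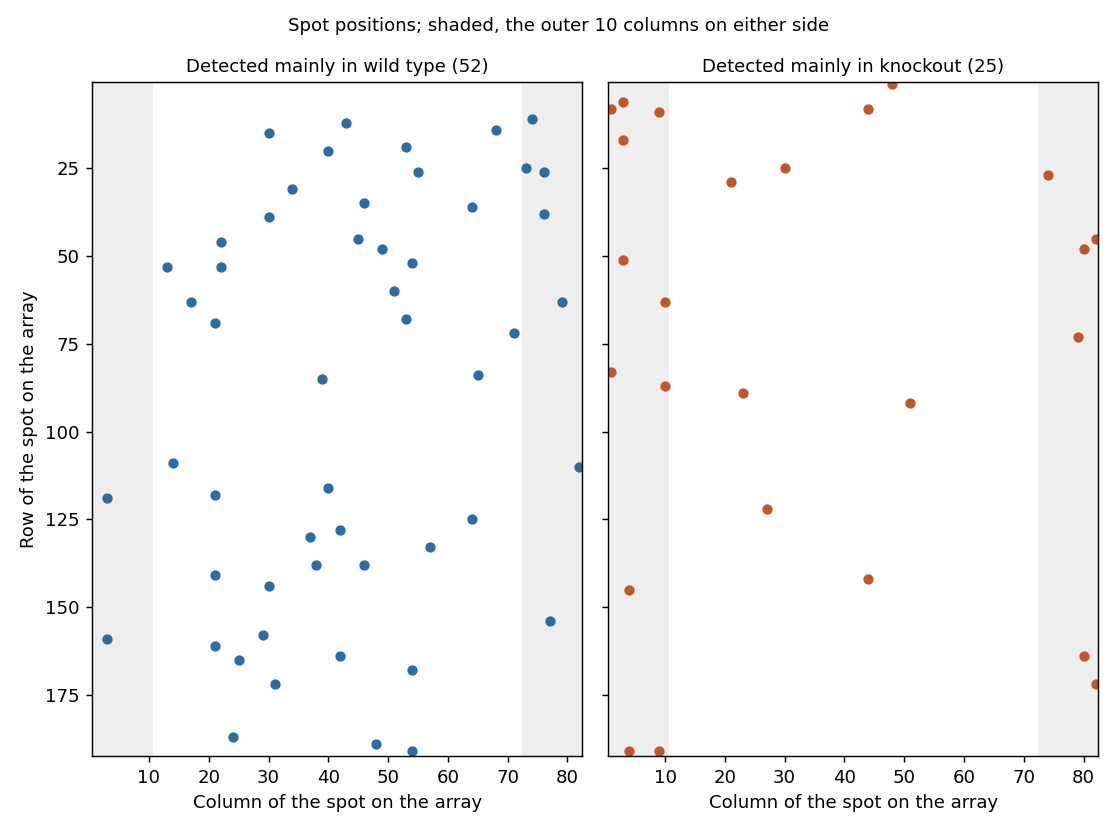
Row (vertical axis) and column (horizontal axis) of each spot on the array, for the 52 circRNAs detected mainly in wild type (left) and the 25 detected mainly in knockout (right). The shaded bands are the outer 10 columns on either side. Of the 25 in the right panel, 17 fall in the bands, and of the 52 in the left panel 9 do.

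The knockouts are given apart by scan, although the rule bears on their order, since knockout 1 had a higher detection level than knockouts 2 and 3. For the circRNAs detected mainly in wild type, the median difference from the wild-type mean was -1.06 on knockout 1, of scan 1, and -1.82 for the mean of knockouts 2 and 3, of scan 2. The same negative probes had inner-column medians of -7.07 on knockout 1 but of -8.46 and -8.10 on knockouts 2 and 3. Undetected spots could thus fall lower on the scan 2 arrays, and -8.16 and -8.11 for ASCRP4005284 lie near that level. The part of this lower floor in the order was not tested. Knockout 1 was lower than the wild-type mean for 44 of 52, and the scan 2 knockouts for all 52. For those detected mainly in knockout the order was the opposite, with 1.18 on knockout 1 and 0.39 on knockouts 2 and 3. There knockout 1 was higher than the wild-type mean for all 25 and above every wild-type mouse for 21. Knockouts 2 and 3 were higher than that mean for 17, and both were above every wild-type mouse for 7. No share of all probes is given for these counts. The values of knockout 1 are those within scan 1, the only scan with both genotypes, and rest on 1 mouse. Scan and genotype therefore cannot be told apart for the rest. The markers with an mRNA probe moved with the scan 2 knockouts in part. Chgb was at -0.97, -0.93 and -0.62 in wild type, at -0.92 on knockout 1 and at -1.46 and -2.02 on knockouts 2 and 3. Mbp was at 0.34, -0.17 and 0.17 in wild type and at 0.24, 0.12 and -1.10 in knockout, low on knockout 3 only. Apoe lay between 2.11 and 2.66 in wild type and at 2.41, 2.41 and 2.43 in knockout, within the wild-type range. The markers are linear mRNAs read in RNA that had been digested with RNase R. Cell content and the extent of digestion therefore cannot be told apart in their signals. The part of these cell types in the circRNA differences was not tested.

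**Figure D5:**
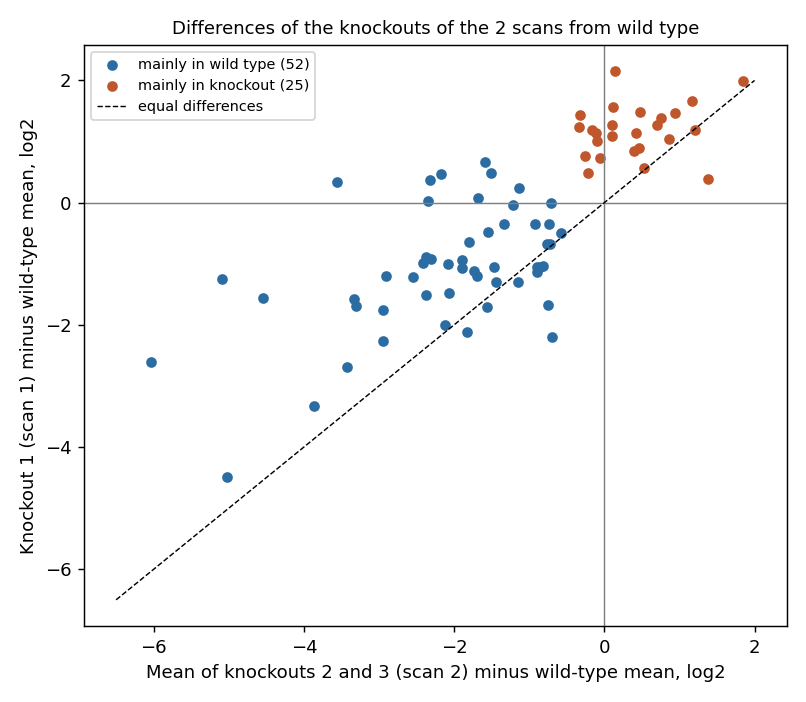
Difference from the wild-type mean on the log2 scale for the mean of knockouts 2 and 3, of scan 2 (horizontal axis), and for knockout 1, of scan 1 (vertical axis), with 1 point per circRNA. On the dashed line both differences are equal. Most circRNAs detected mainly in knockout (orange) lie above the line, with medians of 0.39 and 1.18 on the axes, and so do most of those detected mainly in wild type (blue), with medians of -1.82 and -1.06.

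Each array was also set against a choice made without it. The probes it then detected are by the rule circRNAs of the 2 groups above, so these counts are no independent check. Over all probes an array detected 89.8% (knockout 1) to 95.4% (knockout 2), but each chosen probe was undetected on other arrays. Among the inner-column probes not detected on all 6 arrays, wild types 1 to 3 detected 46.1%, 50.9% and 30.1%. Knockouts 1 to 3 detected 9.50%, 59.4% and 51.2% of them. In the outer columns wild types 1 to 3 detected 42.9%, 50.6% and 32.2% of such probes, and knockouts 1 to 3 detected 18.6%, 64.9% and 57.9%. The choices below were made over all columns. Without knockout 1, 22 probes were detected on all 3 wild-type arrays and on neither knockout 2 nor knockout 3, and knockout 1 detected 11 of them. In the other direction, 95 probes were detected on knockouts 2 and 3 and on no wild-type array, and knockout 1 detected 2. Of probes detected on all wild-type arrays and on neither other knockout, knockout 2 detected 25 of 36 and knockout 3 detected 5 of 16. Of those detected on both other knockouts and no wild-type array, knockout 2 detected 2 of 3 and knockout 3 detected 2 of 6. Chosen on the other wild-type arrays and no knockout, 11 of 16 were detected on wild type 1, 11 of 19 on wild type 2 and 11 of 32 on wild type 3. Chosen on all knockouts and neither other wild-type array, 4 of 6 were detected on wild type 1, 15 of 17 on wild type 2 and 4 of 6 on wild type 3. Each array left out had its own detection level, and its part in these counts was not tested.

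When all arrays were held to a common detection level, the groups changed. With the level of knockout 1, a relative log2 signal of -4.82, 171 probes met the rule for wild type and 50 for knockout. They held 23 of the 52 (44.2%) and 6 of the 25 (24%), which were 13.5% and 12% of the longer lists. With knockout 1's level in intensity units, 13.9, the rule gave 70 and 97 probes, with 13 of the 52 and 4 of the 25 among them. This second level was chosen after the data were seen. The 13 were kept at both levels and included ASCRP4010405, ASCRP4009984, ASCRP4000663, ASCRP4012161, ASCRP4005284, ASCRP4012996, ASCRP4001045, ASCRP4002603 and ASCRP4012013. The 4 of the knockout side were ASCRP4001114, ASCRP4005549, ASCRP4005709 and ASCRP4006797. Of the 15 circRNAs that differed by 4-fold or more in the processed signal, 10 were kept at both levels.

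The authors' own processed values, deposited as log2 values of the same 6 arrays, held all 77 circRNAs. There, 48 of the 52 were lower in knockout with a median difference of -0.37, and 4 were higher by at most 0.07. All 25 of the other group were higher in knockout, with differences from 0.10 to 0.64 and a median of 0.30. The median of all 13336 fitted probes was itself 0.09 there. Since the same arrays chose the circRNAs, these directions are no independent check. In that table ASCRP4000663 and ASCRP4012161 differed by -2.46 and -2.38, ASCRP4010405 by -1.08 and ASCRP4001114 by 0.64. These differences were smaller than in the processed scanner signal, as for dim ASCRP4009782 (-0.26 against -1.87). The bounds above hold for the processed scanner signal only. For ASCRP4010405 the bound was 2.28 on the log2 scale, and the authors' difference of -1.08 fell short of it in size. ASCRP4000663, ASCRP4012161 and ASCRP4001114 fell short of their bounds likewise.

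In the fit over all 13336 probes detected on at least 3 arrays (limma, Benjamini-Hochberg adjusted p under 0.05), 0.0900% of probes were called lower and 0.0450% higher in knockout. All 77 circRNAs passed that filter by the rule that chose them. Of the 52, 2 were called, ASCRP4009782 and ASCRP4007407, which stood at -4.66, -4.77 and -4.43 in wild type and -5.92, -5.99 and -6.14 in knockout. Of the 25, 0 were called by limma, with 8 at an unadjusted p under 0.05. Nothing about genotype is read from these counts, because the same arrays chose the circRNAs. The 2 calls became 17 without wild type 2 and 36 without knockout 1, where 353 and 2001 of all 13336 probes were called. They became 0 without wild type 1, wild type 3, knockout 2 or knockout 3, where at most 3 of all probes were called. With the scan as a block no circRNA of either group was called by limma, and 0 of all 13336 probes were. There 23 of the 52 and 14 of the 25 had an unadjusted p under 0.05. No share of all probes is given for the unadjusted counts, so nothing is read from them.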

How the data were processed

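The 6 scanner files were made with Agilent Feature Extraction 11.0.1.1, per the file headers, and hold a background-corrected intensity for each spot and the software's flags, with no scaling between arrays. The authors' table holds log2 values, and how they were normalized is not stated. Limma is also named in the submitters' processing notes.

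Of 14236 circRNA probes with 1 spot each, 75 had a non-uniformity flag on some array and were left out, and no spot was saturated. Intensities were scaled to the array's 75th percentile over the remaining probes on the log2 scale. A bound sets the mean of one genotype against the mean of the other, with undetected signals raised to the lowest detected signal of their array. It holds for the processed scanner signal only. Limma 3.58.1 (R 4.3.3) fitted genotype over probes detected on at least 3 arrays, with Benjamini-Hochberg adjustment at 0.05, and was tested on simulated data. Tables were made with pandas 2.3.3 (Python 3.11.15). The number of arrays, 3 per genotype, limits precision.

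The circRNAs and rules were chosen with earlier results of these data known. Named are, in each direction, up to 10 circRNAs detected on no array of the other genotype and 6 detected on 1 (largest differences in the processed signal), the brightest and dimmest 3, limma calls and up to 3 probes of each kind just outside the rule. Others named were picked after their values were seen: those marked by wild type 2, ASCRP4003362, ASCRP4000080, ASCRP4013948 and ASCRP4005447. Alternatives covered the detection rule, scaling, background correction, dim-probe filter, variance model, scan, replicate number and single arrays. Normexp (offset 50) used median spot signals. No mRNA probe beyond the markers was analysed here.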

Additional observations from a re-analysis of the deposited data

Results flagged for a closer look

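Of the array's 15 negative probes, which the genotype comparisons above do not use, 2 were detected by each of their 10 spots on each of the 6 arrays. They stand here because this is signal outside the main measurement. Their mean relative log2 signal was -3.68 and -3.36, and the SD between spots of the same array was 0.065 to 0.19 with a median of 0.098. A further 2 negative probes were detected by 90% to 100% of spots on each array, at means from -5.47 to -3.03, and the other 11 by at most 10%. Of the 52 circRNAs detected mainly in wild type, 43 had a wild-type mean below the dimmer of the first 2 and 46 below the brighter. All 25 circRNAs detected mainly in knockout had a knockout mean below both.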

How the results depend on the processing

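The count detected mainly in wild type stayed within 1.5 times of 52 under 8 of 14 alternatives, and that detected mainly in knockout within 1.5 times of 25 under 4 of the same 14. A like count need not hold the same circRNAs. Leaving out population outliers could change neither count, since 0 spots carried that flag, and keeping the non-uniform spots returned 52 and 25 again. With detection on no array of the other genotype the counts were 11 and 2, and with the weaker flag 66 and 10, of which 1 and 0 were among the original circRNAs. At the common level in relative signal they were 171 and 50, with 23 and 6 of the original circRNAs. At that in intensity they were 70 and 97, with 13 and 4 of them. Within scan 1 they were 327 and 46, with 41 and 25 of the original circRNAs. There the rule for wild type allowed no detection on knockout 1, while that for knockout still allowed 1 wild-type array. Outside the outer columns the counts were 43 and 8. Without single arrays, where the rule asks for fewer detections, they ran from 60 to 359 (most without knockout 2 or 3) and from 28 to 221 (most without knockout 1). The median difference kept its sign for wild type, at -0.42 after normexp, -0.37 in the authors' values and -1.04 with undetected signals raised to their array's lowest detected one, and from -1.82 to -1.38 without single arrays. For knockout it was reversed by normexp, -0.10, where the median of all fitted probes was -0.07. It was 0.32 with undetected signals raised (3 of 25 lower), and ran from 0.39 to 0.82 without single arrays. Normexp adds the same 50 units on each array before scaling to percentiles that differ between arrays; the cause of the change was not tested.

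Limma calls among the 52 were 2, and 0 with quantile normalization, normexp, the authors' values, the scan block, scan 1 alone, no filter, the trended robust variance or undetected signals raised (28 at an unadjusted p under 0.05 there). Of all probes, 18 were called in the main fit, and 0 with quantile normalization, the scan block or no filter. Normexp called 452, the authors' values 8, the trended variance 13 and undetected signals raised 10. Calls among the 52 were 23 without scaling, which moved the median of all probes from 0.04 to 0.31 and called 466 of 13336 probes. They ran from 0 to 36 without single arrays, where 0 to 2001 of all probes were called. Among the 25, calls went from 0 to 4 without scaling and from 0 to 1 without single arrays (1 without knockout 1). The replicate block gave 22 and 1 calls, and 501 among all 13336 probes. Deviations of same-numbered mice correlated at 0.14, -0.03 and 0.18, and wild type 1 correlated best with knockout 2 (0.19), so the numbers were not taken as pairs.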
